A study of Arabidopsis thaliana with 6 samples.

Results

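The genes described here are those carried by the mitochondrial genome of Arabidopsis thaliana. They were taken as the rows of the deposited count table whose identifier is ATMG followed by 5 digits and which held at least 10 counts over the 6 libraries. Of 26800 rows in all, 124 were mitochondrial rows, 80 reached that minimum, and 75 remained once rows with identical counts in all 6 libraries were counted once. The last row inside the minimum was ATMG01410 with 10 counts, and ATMG00320 with 9 counts was among those just outside it.

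The study sequenced RNA from entire seedlings 12 days old, kept on half-strength MS medium with 1% sucrose and 1% agar, with light of 100 µmol m-2 s-1 and a temperature of 22 °C. There were 3 libraries labelled wild type, from the Col-0 accession, and 3 labelled vih1vih2, a double mutant of the kinase genes VIH1 and VIH2. These kinases make the inositol pyrophosphate InsP8, which the series title presents as a signal of phosphate status. Whether replicate libraries are separate cultures is not stated in the labels, and p-values cover only the spread among these libraries, which may be technical. Both targeted genes went against the labels. VIH2 (AT3G01310) had 2759, 2783 and 2310 counts under the wild-type label and 33783, 35310 and 38660 under vih1vih2. VIH1 (AT5G15070) had 325, 361 and 246 counts against 1737, 1524 and 1820. Gene counts do not tell intact from broken transcripts, so the groups are called by their labels throughout.

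Plant mitochondria keep a small genome that encodes some subunits of the respiratory chain and of ATP synthase, proteins that mature cytochrome c, some ribosomal proteins, and ribosomal and transfer RNAs. Most mitochondrial proteins, among them the RNA polymerases, the editing factors and most splicing factors that make the organelle's transcripts, are encoded in the nucleus. In the Col-0 accession a large copy of the mitochondrial genome also lies on chromosome 2. Of all stretches of 50 bases in the RefSeq mitochondrial sequence (TAIR10.1, 367808 bases), 70.4% occurred exactly in chromosome 2, so reads from these stretches match both genomes.

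Mitochondrion-encoded rows held few counts in every library. Their sum was 14329, 11053 and 9013 counts under the wild-type label and 16134, 12689 and 13601 under vih1vih2, of library totals between 42697387 and 64410871. Only 4 rows held 1000 or more counts over the 6 libraries, 33 held 100 or more, and 29 held under 50. A count was recorded in every library for 52 rows, and the other 23 had at least 1 library at 0. The way RNA was selected for sequencing is not given in the sources used here, and these counts do not give the abundance of mitochondrial RNA in the seedling. In whole seedlings, fewer mitochondria or cells of a type and less RNA per mitochondrion or cell cannot be told apart.

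As a share of all counts, mitochondrial RNA was higher in the libraries labelled vih1vih2. The 75 rows took 0.0222%, 0.0225% and 0.0211% of counts under the wild-type label and 0.0305%, 0.0265% and 0.0269% under vih1vih2. Every library labelled vih1vih2 lay above every library labelled wild type. The means were 0.0219% ± 0.000731 and 0.0280% ± 0.00221 (SD, n = 3), a ratio of 1.27, with a two-sided exact permutation p of 0.1, the smallest that 3 against 3 libraries allow. TMM scaling, which sets the libraries level over the bulk of tested genes, lowers every ratio of the libraries labelled vih1vih2 to wild type by 0.16 on the log2 scale relative to library totals. On that scale the ratio of the summed rows was 1.14, and the groups still did not overlap (exact permutation p = 0.1).

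Most of the difference in share lay in the 4 most counted rows, at 0.00589 of 0.00602 percentage points. ATMG01390, ATMG00020, ATMG00030 and ATMG00510 together held 87.5% ± 1.62 of the mitochondrial counts under the wild-type label and 89.7% ± 0.283 under vih1vih2 (SD, n = 3). This difference of 2.26 percentage points was 1.42 without wild type replicate 3 and 3.04 without wild type replicate 1. The other 71 rows took 0.00244%, 0.00278% and 0.00300% of library counts under the wild-type label and 0.00303%, 0.00278% and 0.00277% under vih1vih2. These values overlapped (exact permutation p = 0.6), with a ratio of 1.04 on library totals and 0.938 on the TMM scale. The reference used here does not annotate the 4 leading identifiers, so no role is reported for them. A list made for this work, not checked against an annotation, holds ATMG00020, ATMG01380 and ATMG01390 as ribosomal RNA genes. Without these 3 rows the members took 0.00501% ± 0.000130 of library counts under the wild-type label and 0.00592% ± 0.000258 under vih1vih2 (SD, n = 3). The difference was then 0.000909 percentage points and the ratio 1.18, without overlap (exact permutation p = 0.1). On the TMM scale the ratio without these 3 rows was 1.06, and the groups overlapped (exact permutation p = 0.2).

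The plastid genome, the other organelle genome of these cells, showed a lower share instead. Its 130 rows took 0.192%, 0.186% and 0.188% of counts under the wild-type label and 0.159%, 0.135% and 0.150% under vih1vih2. The groups did not overlap (ratio 0.784, exact permutation p = 0.1). The ratio of mitochondrial to plastid counts was therefore 0.116 ± 0.00404 against 0.189 ± 0.00910 (SD, n = 3), 1.63 times as high under the vih1vih2 label, again without overlap (exact permutation p = 0.1).

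**Figure D1:**
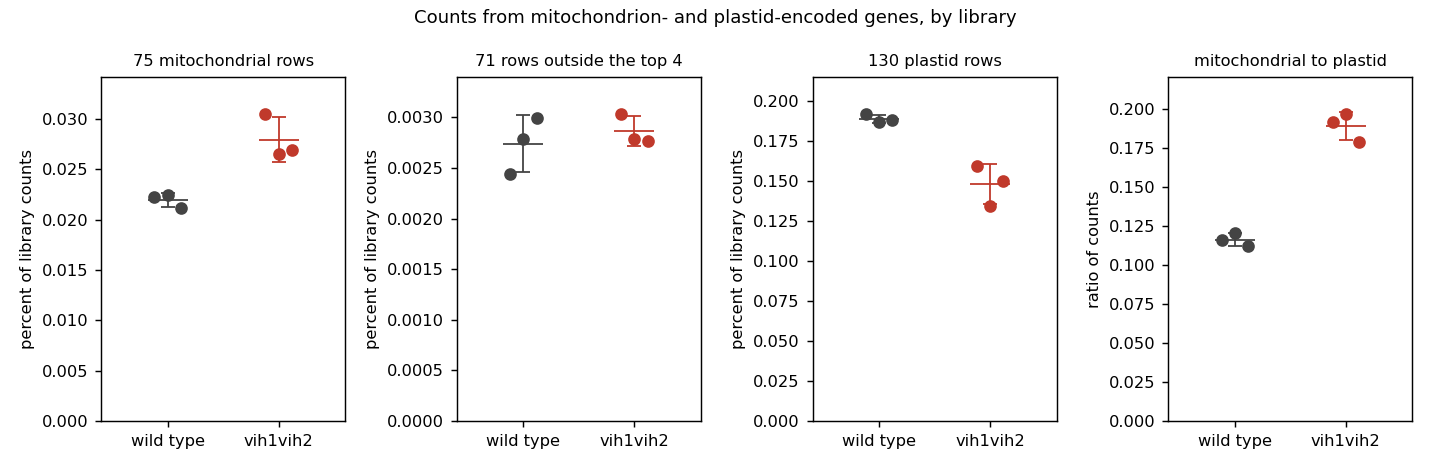
Percent of library counts in the 75 mitochondrial rows, in the 71 rows outside the 4 most counted and in the 130 plastid rows, and the ratio of mitochondrial to plastid counts. Points are libraries, bars are the mean and SD of 3 libraries, and all axes start at 0. The mitochondrial share is higher and the plastid share lower in the 3 libraries labelled vih1vih2, while the share of the 71 rows overlaps between groups.

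Markers of organs and of dividing cells differed between the same libraries. All 11 root markers were tested and 7 fell, 4 of 5 tested markers of dividing cells fell, and 5 of 6 leaf markers fell, with none of these lists holding a gene that rose. By the same test 19.4% of all tested genes fell and 21.4% rose. The summed level of the leaf markers was 27169 to 27695 CPM (counts per 1000000, TMM-scaled) under the wild-type label and 14247 to 14456 under vih1vih2. The summed root markers stood at 2220 to 2314 CPM against 1377 to 1427, and the summed markers of dividing cells at 131.5 to 171.8 against 72.8 to 84.9. Most of the root sum was PYK10, with means of 2112 CPM under the wild-type label and 1291 under vih1vih2. Of the root markers not called, SCR, EXPA7 and EXPA18 had log2 fold changes above 0 (0.68, 0.48 and 0.16) and CASP4 one below 0 (−0.45). The leaf marker not called was GLDP1 (0.04), and that of dividing cells was CYCB1;1 (−0.25). Most of the leaf sum was CAB3, RBCS1A, RCA and LHCB2.1, with wild-type means of 10708.5, 6225.6, 4906.7 and 3833.0 CPM. No marker in these lists with a row was at 0 in all libraries. The part of organ or cell make-up in the mitochondrial values was not tested.

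Single rows were compared by edgeR's quasi-likelihood test, fitted over all genes with Benjamini-Hochberg adjustment, and a gene is said to have risen or fallen at an adjusted p under 0.05. Of the 75 mitochondrial rows 44 passed the filter on low counts. Of these 4 rose and 2 fell, which is 13.6%, where 40.9% of all 22818 tested genes were called (21.4% higher and 19.4% lower). The tested rows had a median level of 0.458 CPM against 14.1 CPM over all tested genes, and a median standard error of 0.42 on the log2 scale against 0.18. One count was worth 0.0165 to 0.0245 CPM. By the DESeq2 Wald test 7 members rose and 5 fell, where 48.8% of all genes were called. Without wild type replicate 1 only 2 members rose, and without vih1vih2 replicate 1 the number that fell was 4. In these 2 fits the filter on low counts was applied anew, so the rows tested can differ. The lower share of calls stands beside lower counts, and it does not show that these genes changed less. In 17 of the 44 tested rows (38.6%) the groups did not overlap in scaled CPM, against 56.4% of all tested genes. Of these 17 rows 8 were higher and 9 lower under the vih1vih2 label.

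The median log2 fold change (libraries labelled vih1vih2 over wild type) of the 44 rows was −0.28, with quartiles of −0.68 and 0.64, beside a median of 0.00 and quartiles of −0.45 and 0.50 over all tested genes. The median lay below 0 although the summed share was higher. The sum is mostly that of 4 rows, and the median weighs all rows alike. The scales differ too, as the share is on library totals and TMM scaling lowers each log2 fold change by 0.16. On the TMM scale the summed rows were still higher, at a ratio of 1.14. The median was −0.20 to −0.039 when 1 library was left out, and 0.25 over the 4 rows left by a filter of 5 CPM in 3 libraries. In each fit with 1 library left out the filter on low counts was applied anew. The rows behind those medians can therefore differ from the 44. Of the 44 estimates 19 were above 0 and 25 below.

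**Figure D2:**
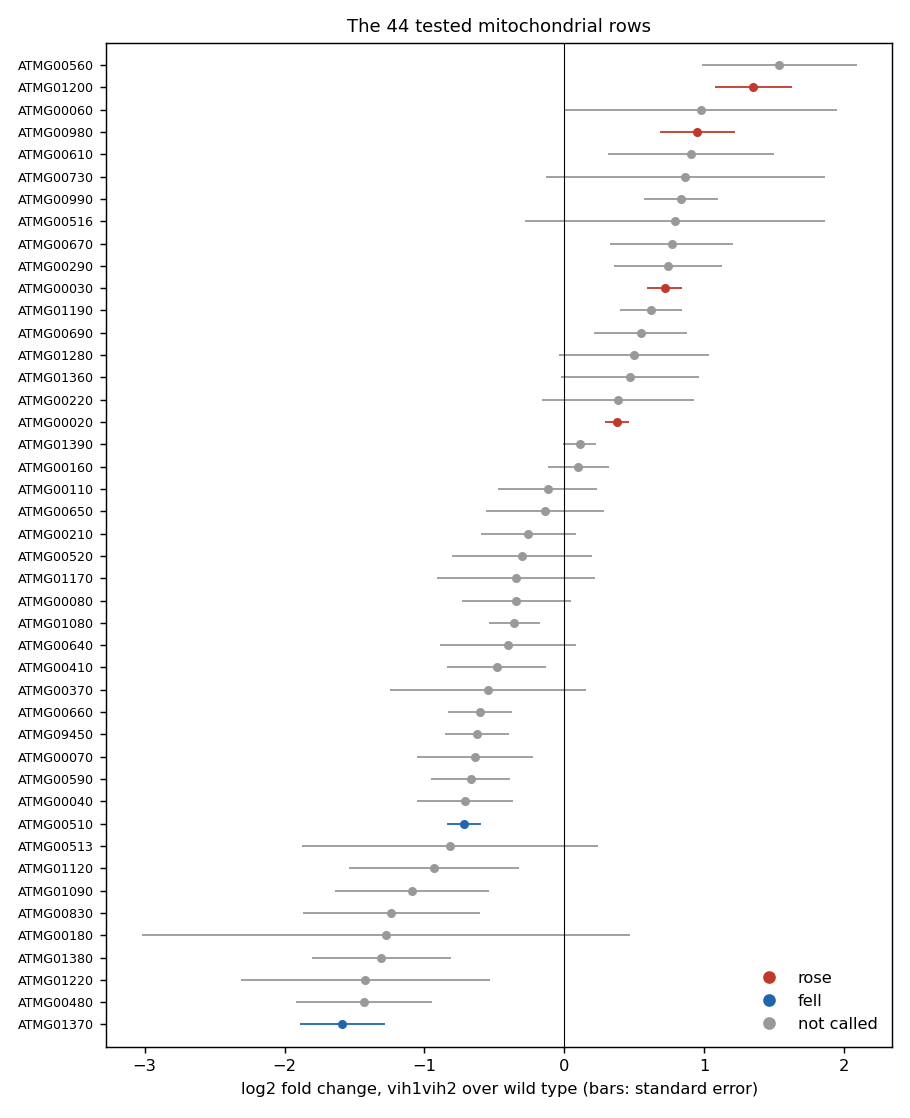
Log2 fold change of the 44 tested mitochondrial rows, libraries labelled vih1vih2 over wild type, with bars of 1 standard error. Rows that rose are red, rows that fell are blue and rows not called are grey. Called rows lie in both directions, and many uncalled rows have estimates as large with wider bars.

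Among the 4 most counted rows, the most counted one did not pass the test and the others moved in different directions. ATMG01390 had 6678, 5176 and 3673 counts under the wild-type label and 6904, 5492 and 5548 under vih1vih2, or 103.9 ± 12.1 and 112.1 ± 10.7 CPM (SD, n = 3). Its groups overlapped, and its log2 fold change was 0.11 ± 0.12 (edgeR adjusted p = 0.508).

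ATMG00020 had 4406, 3444 and 3111 counts under the wild-type label and 5926, 4450 and 5088 under vih1vih2. In scaled CPM every library labelled vih1vih2 (87.7 to 106.6) lay above every library labelled wild type (72.9 to 76.2). It rose by 0.38 ± 0.08 on the log2 scale (edgeR adjusted p = 0.0180). Without wild type replicate 1 or 2 the call was lost, with adjusted p-values up to 0.0547 over the 6 fits that each left out 1 library.

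ATMG00030 had 961, 629 and 486 counts against 1313, 1098 and 1209. Its scaled level was 13.8 ± 2.00 CPM against 22.6 ± 0.994 (SD, n = 3), without overlap. It rose by 0.72 ± 0.13 (1.64-fold, edgeR adjusted p = 0.00775) and its share of mitochondrial counts went from 5.93% ± 0.689 to 8.56% ± 0.384.

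ATMG00510 moved the other way, with 713, 435 and 463 counts under the wild-type label and 386, 316 and 354 under vih1vih2. Its scaled level was 10.8 ± 1.29 CPM against 6.60 ± 0.360 (SD, n = 3), without overlap. It fell by 0.71 on the log2 scale (SE 0.12, edgeR adjusted p = 0.00674). It took 4.98%, 3.94% and 5.14% of the mitochondrial counts under the wild-type label and 2.39%, 2.49% and 2.60% under vih1vih2.

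The remaining called rows had far fewer counts. ATMG01200 had 16, 15 and 17 counts under the wild-type label and 54, 43 and 39 under vih1vih2, and rose by 1.35 ± 0.28 (2.55-fold, edgeR adjusted p = 0.0128). ATMG01370 had 76, 46 and 63 counts against 29, 22 and 16, and fell by 1.59 (SE 0.30, edgeR adjusted p = 0.0101). In both rows the groups lay apart in all 6 libraries. Of the other rows with more counts, ATMG00080 (631 counts over the 6 libraries), ATMG01360 (344) and ATMG00690 (341) overlapped between groups and did not pass. ATMG00660 had 79, 64 and 62 counts against 65, 37 and 46, with a log2 fold change of −0.60 ± 0.23 (edgeR adjusted p = 0.0879). ATMG09450 had 48, 34 and 29 counts against 29, 27 and 21, with a log2 fold change of −0.63 ± 0.23 (edgeR adjusted p = 0.0797). Neither passed, although in both the groups did not overlap in scaled CPM. Of the rows with no annotated product and no call, the largest estimates were 0.98 ± 0.97 for ATMG00060, −1.42 ± 0.89 for ATMG01220 and −1.31 ± 0.50 for ATMG01380, the last with 37, 21 and 27 counts against 19, 13 and 5. ATMG00980 is the only called row with an annotated product and is described with the ribosomal proteins.

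**Figure D3:**
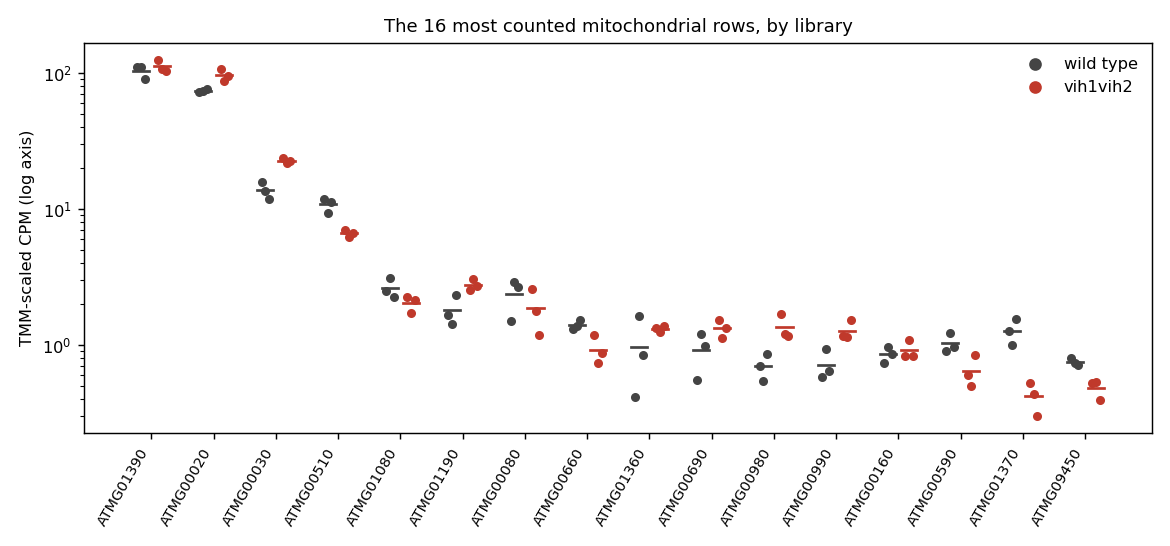
TMM-scaled CPM of the 16 most counted mitochondrial rows in each library, on a log axis, with grey points for libraries labelled wild type, red points for those labelled vih1vih2 and short lines at group means. Levels drop from 103.9 CPM for ATMG01390 to 10.8 for ATMG00510 and below 3 CPM for the others (wild-type means).

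A product could be named for 22 of the 75 rows, from RefSeq notes that give them as the best protein match of a chromosome 2 gene. RefSeq lists 32 protein genes in the mitochondrial genome, among them nad7, atp4 and rpl16, which these notes did not name. Rows with no named product may therefore belong to the same classes, and the counts by class below cover named rows only. These 22 rows held 4.66% of the mitochondrial counts, 17 of them were tested, 1 rose and none fell by edgeR. Their median log2 fold change was 0.38, beside −0.34 for the 27 tested rows with no named product, of which 3 rose and 2 fell. By the same test 40.9% of all tested genes were called. Each named row has, by the way it was named, a matching nuclear gene that may share its reads. The contrast therefore does not separate product from the presence of such a match, and no difference was tested.

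Rows for ATP synthase, the enzyme that makes ATP from the proton gradient, held the most counts among named products. All 5 rows named for this enzyme were tested and none passed. ATMG01080, for subunit 9 of the membrane ring, had 150, 143 and 92 counts under the wild-type label and 125, 87 and 114 under vih1vih2. Its scaled level was 2.60 ± 0.425 CPM against 2.03 ± 0.282 (SD, n = 3), lower in all libraries labelled vih1vih2, with a log2 fold change of −0.36 ± 0.19 (edgeR adjusted p = 0.187).

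ATMG01190, for subunit 1 of the catalytic head, had 100, 66 and 95 counts against 140, 155 and 145. The groups lay apart, and the log2 fold change was 0.62 ± 0.22 (edgeR adjusted p = 0.0752). ATMG00480, for subunit 8, had 27, 24 and 29 counts against 19, 6 and 8, and a log2 fold change of −1.43 ± 0.49 (edgeR adjusted p = 0.0661). The groups lay apart here as well, so the named ATP synthase rows did not share a direction, but no difference between them was tested. ATMG00410 (subunit 6-1) and ATMG01090 (named ATP synthase 9) had log2 fold changes of −0.48 ± 0.35 and −1.09 ± 0.55, with overlapping groups.

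Of the rows named for NADH dehydrogenase, the first complex of the respiratory chain, only ATMG00990 (subunit 3) was tested. Other subunits of this complex may stand among the tested rows with no named product. It had 35, 43 and 26 counts under the wild-type label and 64, 58 and 81 under vih1vih2, without overlap. Its log2 fold change was 0.83 ± 0.26 (edgeR adjusted p = 0.0526). Identical counts stood at ATMG01000 and ATMG01010, so these reads cannot be assigned to one of the 3 identifiers. The rows for NADH dehydrogenase 1A (ATMG01275) and 2B (ATMG01320) held 29 and 45 counts in all and were not tested.

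No row named for the later complexes passed the test. ATMG00220, for apocytochrome b of the third complex, had 24, 15 and 5 counts against 28, 11 and 21, and its groups overlapped. ATMG00590, named a cytochrome b/b6 protein, had 54, 57 and 39 counts against 33, 25 and 45, with a log2 fold change of −0.67 ± 0.28 (edgeR adjusted p = 0.117) and no overlap in scaled CPM. ATMG00730, for subunit 3 of cytochrome c oxidase, had 14, 0 and 14 counts against 29, 15 and 12, and a standard error of 1.00 on the log2 scale, and its groups overlapped.

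Of the 4 rows named for ribosomal proteins, which build the organelle's own ribosome, 3 were tested and 1 rose. ATMG00980, of the ribosomal protein S12/S23 family, had 42, 25 and 35 counts under the wild-type label and 93, 61 and 62 under vih1vih2. Its scaled level was 0.697 ± 0.160 CPM against 1.35 ± 0.284 (SD, n = 3), and the groups did not overlap. It rose by 0.95 ± 0.27 (1.93-fold, edgeR adjusted p = 0.0367). This call held without wild type replicate 3 and was lost when any of the other 5 libraries was left out, with adjusted p-values up to 0.105.

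ATMG00290 (ribosomal protein S4) had 8, 12 and 12 counts against 19, 21 and 20. The change of 0.74 ± 0.39 on the log2 scale did not pass (edgeR adjusted p = 0.190) although the groups lay apart in scaled CPM. ATMG00210 (ribosomal protein L5) had 16, 19 and 17 counts against 13, 17 and 18, with overlap. ATMG01270 (ribosomal protein S7) held 14 counts in all and was not tested. Of the 3 rows named for cytochrome c maturation, ATMG00180 alone was tested, with 14, 0 and 26 counts against 19, 0 and 0. ATMG00960 and ATMG00900 held 33 and 15 counts in all.

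Levels can be set against each other only per length, here as CPM per kilobase of the RefSeq coding length for 11 named rows. Under the wild-type label ATMG01080 (atp9, 225 bases) stood highest at 11.6 ± 1.89 CPM per kilobase (SD, n = 3), above every library of every other row compared. ATMG00980 (rps12) followed at 1.84 ± 0.423, then ATMG01190 (atp1) at 1.18 ± 0.309 and ATMG00480 (atp8) at 1.17 ± 0.287, and these neighbours overlapped. ATMG00210 (rpl5) lay at 0.651 ± 0.153. The other 6 rows (cox3, cob, ccmFC, rps4, rps7 and ccmC) lay between 0.0422 and 0.240 CPM per kilobase, with SDs that reached 0.243. Every stretch of 50 bases in these 11 coding sequences occurs in the nuclear chromosomes, so each level may hold reads of the nuclear copy or have lost reads to it. The 11 rows were named through a nuclear match, and the order of levels holds among them only. Other protein genes of the RefSeq mitochondrial genome share less, with 0% of such stretches for atp4, ccmB, cox1, nad4L and nad9.

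Counts also stood at genes of the nuclear copy. A chromosome 2 row was matched to 28 of the 75 members, and for 16 pairs both rows were tested. The 2 rows had the same sign of change in 14 of the 16 pairs. Among the chromosome 2 rows of these 16 pairs 3 rose and none fell by edgeR, where 21.4% of all tested genes rose and 19.4% fell. ATMG00480 and its match AT2G07707 had nearly the same counts, with 27, 24, 29, 19, 6 and 8 against 27, 24, 27, 19, 6 and 8 in the same library order, the only pair within 2 counts in all libraries. AT2G07675, the match of ATMG00980, had 42, 25 and 26 counts under the wild-type label and 86, 66 and 64 under vih1vih2, and rose by 1.11 ± 0.20 (edgeR adjusted p = 0.00862).

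In other pairs the chromosome 2 row held more counts than the mitochondrial one. AT2G07698, the match of ATMG01190, had 208, 149 and 189 counts against 281, 312 and 269. AT2G07715 had 219, 172 and 152 counts against 336, 301 and 262 and rose by 0.61 ± 0.12 (edgeR adjusted p = 0.0108). Its mitochondrial partner ATMG00560, an OB-fold protein, had 4, 8 and 13 counts against 30, 27 and 27, with the largest fitted increase of the 44 tested rows in this fit at 1.54 ± 0.55 (edgeR adjusted p = 0.0765). How the submitters' counting placed reads that match both genomes is not given in the sources used here, so the 2 rows of a pair are not independent measurements. When both rows of each pair were added together before the fit, a step chosen after the data were seen, 6 members rose and 3 fell.

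**Figure D4:**
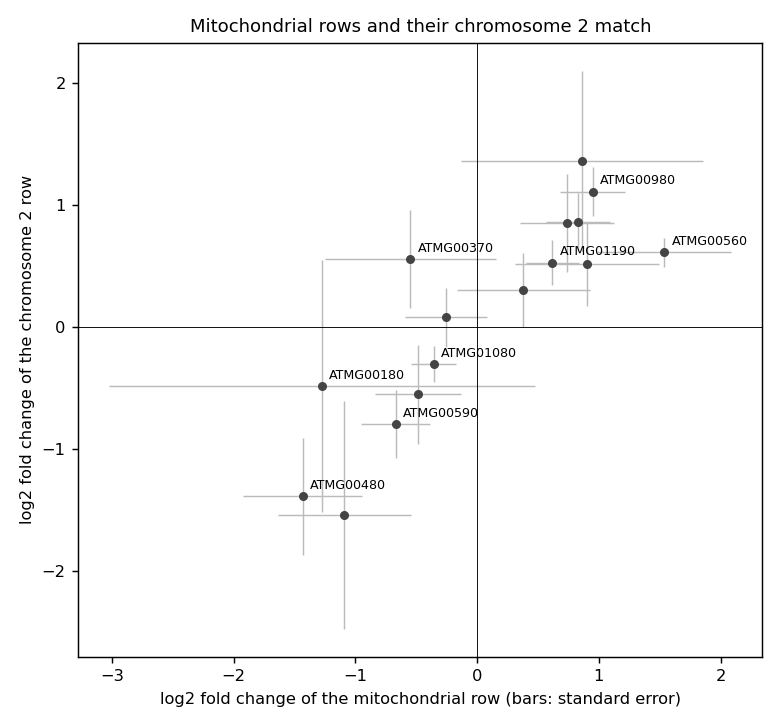
Log2 fold change of a mitochondrial row (x axis) and of its chromosome 2 match (y axis) for the 16 pairs with both rows tested, libraries labelled vih1vih2 over wild type, with bars of 1 standard error. Of the 16 pairs 14 lie in the lower left or upper right corner.

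Nuclear genes for mitochondrial functions were listed by function, with 85 entries of which 84 were tested. In the lists for the respiratory chain and ATP synthase 19 of 40 tested genes rose and 1 fell, beside 21.4% higher and 19.4% lower over all genes. AT5G13440, listed for the third complex, and AT5G13450, listed for ATP synthase, carry identical counts, and both rose. The same counts thus stand as a rise in both lists, and with such rows counted once 18 of 39 rose. The median log2 fold change of the 40 genes was 0.34.

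In the first complex 7 of 14 genes rose and 1 fell, led by AT4G02580, for its 24 kDa subunit, at 31.1 ± 0.957 against 46.6 ± 0.670 CPM (log2 fold change 0.58 ± 0.06, edgeR adjusted p = 0.000827). In the third complex 5 of 9 rose and none fell, among them MPPBETA (AT3G02090), for a peptidase subunit that is part of this complex in plants, at 208.4 ± 7.42 against 338.3 ± 5.23 CPM. Of the cytochrome c and cytochrome c oxidase genes 3 of 8 rose and none fell. CYTC-2 (AT4G10040), for the soluble electron carrier cytochrome c, stood at 9.18 ± 0.731 against 35.6 ± 1.93 CPM (log2 fold change 1.96 ± 0.09, edgeR adjusted p = 8.16e-05). Of the ATP synthase genes 4 of 9 rose and none fell, among them ATP3 (AT2G33040), for the gamma subunit, at 0.25 ± 0.04. These counts stand beside 40.9% of all tested genes called, 21.4% higher and 19.4% lower. Single lists of 8 to 14 genes do not show whether their share of calls differs from that.

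Lists for making and keeping mitochondrial transcripts and DNA held 2 to 15 tested genes each, where 40.9% of all tested genes were called. Lists this short do not show whether their share of calls differs from that. MGP3 (AT1G68990), the mitochondrial RNA polymerase also called RPOTm, rose by 0.28 ± 0.06 (edgeR adjusted p = 0.0187), and the other polymerase of the list did not pass. The call of MGP3 was lost without wild type 2, wild type 3 or vih1vih2 2. Of 15 splicing factors 1 rose and 1 fell, and of 12 tested editing factors 1 rose, MEF9 (AT1G62260) at 0.50 ± 0.11. Of 7 genes of mitochondrial DNA maintenance 2 fell, the DNA-binding protein gene ATWHY2 (AT1G71260) by 0.44 (SE 0.09) and the recombination gene RECA3 (AT3G10140) by 0.38 (SE 0.09) on the log2 scale. The call of RECA3 was lost without wild type 1, wild type 3, vih1vih2 1 or vih1vih2 2. Of 8 genes for ribosomal proteins of mitochondria 1 fell, MRPL11 (AT4G35490), by 0.24 (SE 0.04).

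A list of 9 nuclear genes of the mitochondrial stress response, which rise when respiration is disturbed, had 8 genes that rose and none that fell, with a median log2 fold change of 2.00. Over all tested genes 21.4% rose and 19.4% fell. The 9 genes were chosen with earlier results of these data known. Their share of calls is therefore a description and no test of a stress response. AOX1A (AT3G22370), the alternative oxidase that passes electrons to oxygen past the cytochrome complexes, stood at 37.4 ± 2.90 against 117 ± 13.9 CPM (log2 fold change 1.64 ± 0.11, edgeR adjusted p = 0.000266). BCS1 (AT3G50930), an outer membrane protein also called OM66, stood at 7.60 ± 0.684 against 40.3 ± 3.67 CPM, and AT5G51440, a small heat shock protein, at 1.88 ± 0.0451 against 27.2 ± 5.09 CPM. NAC017 (AT1G34190), a transcription factor known to control several such genes, did not pass, at −0.12 ± 0.07 (edgeR adjusted p = 0.239). NAC13 (AT1G32870), another transcription factor of this list, rose by 1.61 ± 0.23 (edgeR adjusted p = 0.00342).

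**Figure D5:**
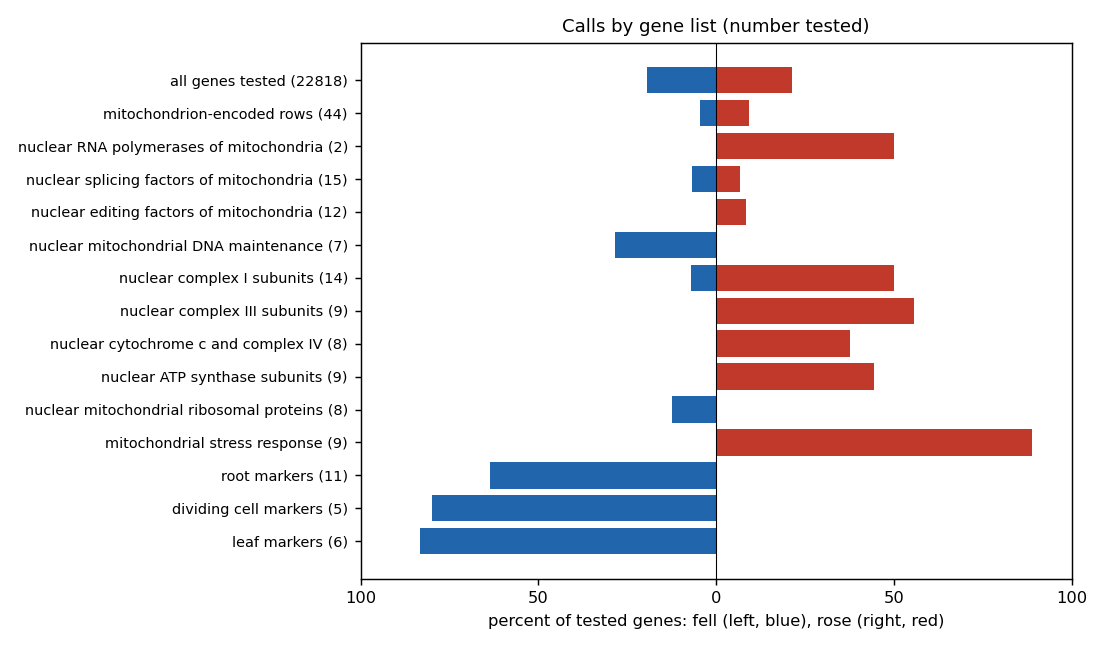
Percent of tested genes that rose (right, red) or fell (left, blue) by edgeR among all genes, the mitochondrion-encoded rows, lists of nuclear genes of mitochondrial function, and organ and cell markers, with the number tested in brackets. The stress response list holds 8 of 9 genes that rose, while 4 of 44 mitochondrion-encoded rows rose and 2 fell. The gene lists were chosen with earlier results of these data known.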

How the data were processed

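The authors deposited whole-number counts for each gene identifier in 6 libraries. Per the submitters' processing notes, the authors used CASAVA 1.4, STAR 2.5.3a and StringTie 1.3.3b with genome build TAIR10, and per the labels' protocols the kit was directional. The counting tool, the strand setting and the handling of reads with several matches were not given in the sources used here. Of 27080 rows, 280 with 6 digits copied their 5-digit row and were left out. The members and gene lists were chosen with earlier results of these data known.

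Libraries labelled vih1vih2 (3) and wild type (3) were fitted with edgeR 4.0.16 under R 4.3.3 (filterByExpr, TMM, glmQLFit and glmQLFTest, group as the only term), checked on simulated data. Alternatives used DESeq2 1.42.0 and limma 3.58.1. The standard error is the log2 fold change divided by the root of F. Shares were compared by two-sided exact permutation tests of means. No replicate was a copy, as pairs gave a chi-square of 117 to 143 per degree of freedom over all genes. Products were named from RefSeq notes of TAIR10.1. No coordinates or sequences are given, since the mitochondrial reference used by the authors was not used here. Named rows were all members with a role, the 6 most counted others, the 5 of largest change each way, called rows, and up to 3 called genes of each nuclear list. Not every row that the rule allows is described. AOX1A, NAC017, NAC13, the organ and cell markers named singly and the chromosome 2 rows are outside this rule, picked with their values known. Plots used Python 3.11.15 and matplotlib 3.10.9.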

Additional observations from a re-analysis of the deposited data

How the results depend on the processing

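The member share, the plastid share, their ratio and the shares of the 4 most counted rows kept their direction on library totals under the alternative denominators, row choices and left-out libraries run for each, but not their size. Without the 3 listed RNA rows the difference in member share was 0.000909 percentage points in place of 0.00602, and that in the share of ATMG00510 was −8.67 in place of −2.19. Without the listed plastid rRNA rows the plastid difference was −0.0149 in place of −0.0408. Leaving out 1 library moved the share of ATMG01390 between −4.43 and −1.39 (main −2.44). With the DESeq2 Wald test 7 members rose and 5 fell. A filter of 5 CPM in 3 libraries tested 4 members, of which 2 rose and 1 fell, with a median log2 fold change of 0.25. At an adjusted p under 0.01 the counts were 3136 genes that rose and 2623 that fell, 1 member each way, and 14 and 1 nuclear mitochondrial genes (main 22 and 5). Same-numbered libraries did not deviate together (correlations of 0.031, −0.026 and −0.0145), so the numbers do not pair them. With the replicate number as a block 1 member rose and 1 fell, and 14 nuclear mitochondrial genes rose and 0 fell, with the lost calls not read as weaker effects.

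Leaving out 1 library each gave 2 to 6 members that rose and 2 to 4 that fell, a member median of −0.20 to −0.039, and 2 to 5 nuclear mitochondrial genes that fell. The count of rising members was 2 without wild type replicate 1, and that of falling ones 4 without vih1vih2 replicate 1. The nuclear count was 2 without wild type 3, vih1vih2 1 or vih1vih2 2, and 3 without vih1vih2 3. The median was −0.08 without wild type 1 and −0.039 without wild type 2. The filter on low counts was applied anew in each fit, so the rows tested can differ from those of the main fit. These counts and medians therefore do not show the effect of a left-out library alone. ATMG00030, ATMG00510, ATMG01200 and ATMG01370 were called in all 6 of these fits, and of the rows and nuclear genes run one by one none turned its direction in the 15 alternatives. The cause of these changes was not tested. Rows under 100 counts allow no firm statement at this depth.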
